A study of Mus musculus with 2 samples.

Results

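Genes that encode the enzymes adding methyl groups to histone lysines or taking them off were examined for Brg1 binding in mouse medulloblastoma. The list held 26 methyltransferases (writers) and 15 demethylases (erasers). It was chosen with earlier results of these data known, so its share of genes with an island is a description and not independent evidence. All 41 were found among the 21631 protein-coding genes of chromosomes 1 to 19 and X in the RefSeq annotation (GRCm38.p6, mm10). A gene was counted when an enriched region (island) had at least 1 base in the annotated gene or within 5 kb of it. Brg1, encoded by Smarca4, is the ATPase of the BAF (SWI/SNF) chromatin remodelling complex. It was profiled by ChIP-seq in dissociated cells of primary tumours that formed spontaneously in mice with the alleles CAG-CreER and Rosa26-SmoM2. SmoM2 is an active form of the Hedgehog signal transducer Smoothened, and the CAG promoter that drives CreER is broadly active, so the alleles are not restricted to one cell type. The J1 antibody is labelled Brg1/Brm, so an island can hold Brg1 or its paralogue Brm. There was 1 ChIP library and 1 input library, both from this genotype, with no other condition, and the input is not analysed here.

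Histone lysine methylation marks chromatin states. Methylation of H3K4 marks promoters and enhancers, that of H3K36 and H3K79 marks transcribed genes, and that of H3K9, H3K27 and H4K20 is found in silent or compact chromatin. Writers carry a SET domain, except Dot1l, and erasers are either flavin-dependent oxidases or JmjC-domain dioxygenases. Some of these genes, among them Kmt2c and Kmt2d, are known to be mutated in human medulloblastoma.

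The ChIP library was represented by 5727 islands with a median of 68 reads each. A single library gives no spread between animals, so no test was made, and the library's total depth is unknown. Intervals on reads cover counting error only. Those on shares treat genes as independent draws, which a chosen list is not, so they are descriptions. Where no island was called, Brg1 may still be present below the caller's threshold. Of markers for the granule neuron lineage, from which this tumour type arises, 5 of 5 had an island (Atoh1, Zic1, Barhl1, Neurod1 and Pax6), and of markers of other cell types 2 of 9 did (Mbp and Gfap). Over all protein-coding genes the share was 16.9%. These markers too were chosen with earlier results known, and an island is not a measure of expression, so the labelled tissue was not tested by them.

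An island lay within 5 kb of 16 of the 41 genes (39.0%, Wilson 95% interval 25.7 to 54.3), against 16.9% of all protein-coding genes. These 16 genes had 22 islands, each of which belonged to 1 of them only. Setd1b, Kmt2e and Kdm6b held the islands with the most reads. Counting only islands near an annotated end (5 kb to either side), 13 genes had one, against 13.1% of all protein-coding genes. More than 1 island was found at 5 genes, against 3.67% of all: Kdm6b had 3, and Setd1b, Nsd3, Kdm2b and Jmjd1c had 2 each.

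The methylation enzyme genes are longer than most, and long genes had islands more often. Their median length was 62.4 kb, against 17.3 kb over all protein-coding genes. Of genes from 20 to under 50 kb, 5 of 15 enzyme genes had an island, against 16.8% of all genes in that class. From 50 to under 100 kb the count was 6 of 13, against 24.9%, and from 100 kb up it was 5 of 9, against 39.9%. None of the 4 enzyme genes under 20 kb had one (Kmt5c, Ehmt2, Suv39h2 and Kdm8), against 10.4% of all genes of that length. If each length class had the share of all genes, 9.78 of the 41 would be counted.

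**Figure D1:**
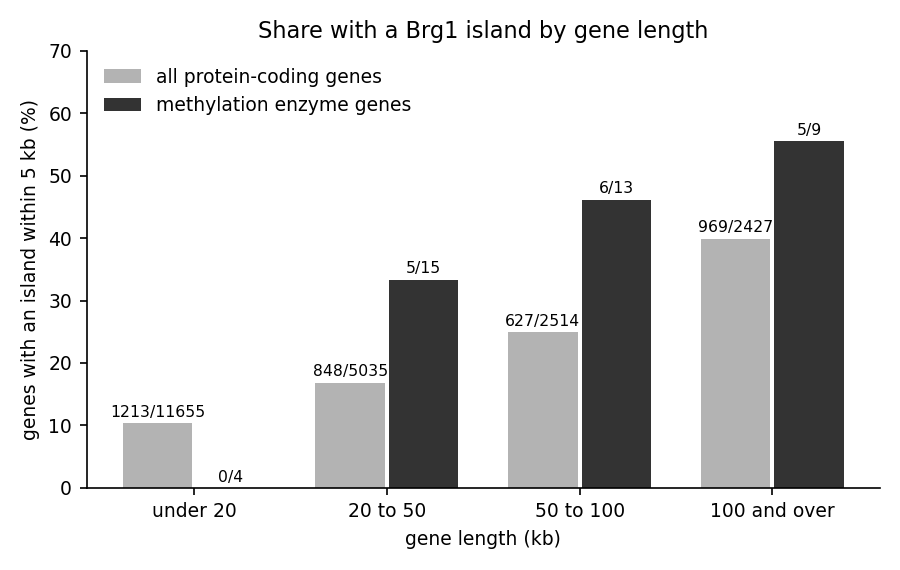
Share of genes with a Brg1 island within 5 kb (percent, vertical axis) in 4 classes of gene length (kb, horizontal axis), for all protein-coding genes (grey) and the 41 methylation enzyme genes (black), with the count over each bar. The share rose with length in both, and the enzyme genes were above all genes in each class from 20 kb up, by counts of 5 of 15, 6 of 13 and 5 of 9.

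Erasers had islands more often than writers in this list. The count was 8 of 15 erasers (53.3%, Wilson 95% interval 30.1 to 75.2) and 8 of 26 writers (30.8%, 16.5 to 49.99), a writer minus eraser difference of -22.6 percentage points (95% interval -48.7 to 7.57). That interval includes 0, and it is a description rather than a test. At the shares of their length classes, 3.64 erasers and 6.14 writers would be counted. The difference was -35.7 points among genes under the median length of the 41 and -5.56 points among the others. It was -9.23 points when an island was given only to the gene with the nearest end, and -7.44 points with only the 1464 islands of 86 or more reads.

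By the lysine acted on, counts are set beside those that the shares of all genes in the same length classes would give. For H3K36, 3 of 5 writers had an island, against a count of 1.7 at those shares, and 2 of 3 erasers, against 0.753. For H3K4 the counts were 3 of 8 writers, against 1.66, and 1 of 3 erasers, against 0.667. For H3K9, 4 of 8 erasers had an island, against 2.05, but 2 of 8 within 5 kb of a gene end. The writers of H3K9 stood at 0 of 6, against 1.34, which is near the background. A count of 0 of 6 has a Wilson 95% upper limit of 39.0%, and 3 counts would be a share of 50%. Among the smaller classes, Kdm6b, the 1 eraser placed under H3K27, had islands, against a count of 0.168 at those shares. An island was found at 1 of 3 H4K20 writers, against 0.522. Dot1l, the writer of H3K79, had none, against 0.168. Of Kmt2e, Setd3 and Setd5, SET-domain genes whose methylation of histone lysines is not established, only Kmt2e had one, against 0.748. The classes are small and their intervals overlap.

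**Figure D2:**
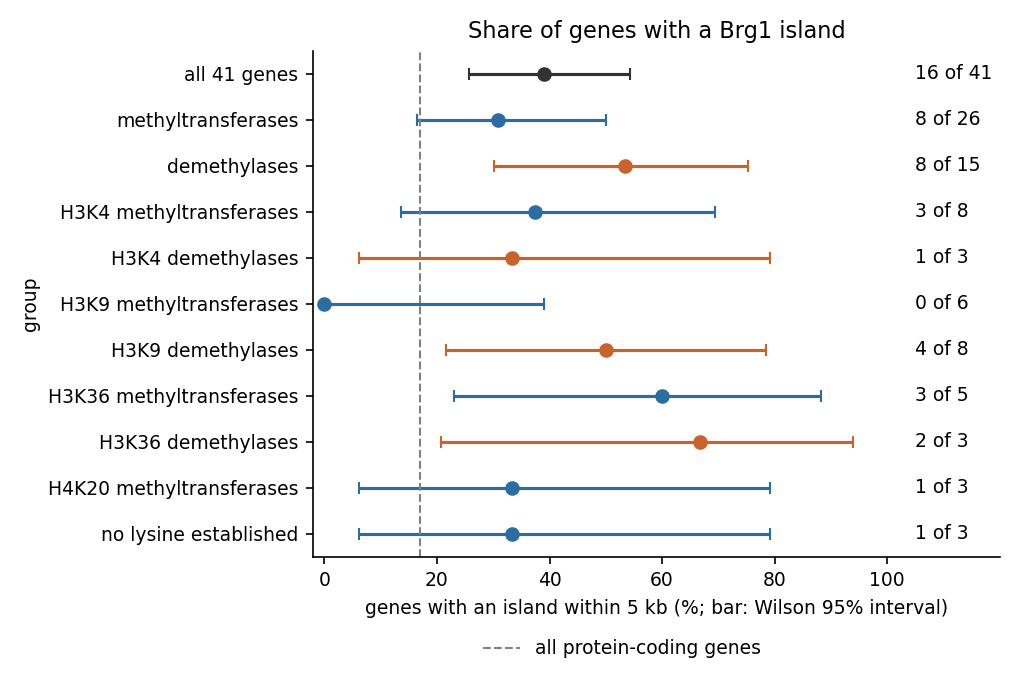
Share of genes with an island within 5 kb (percent, horizontal axis) for all 41 genes, for writers (blue) and erasers (orange), and for each lysine acted on, with Wilson 95% intervals and counts at the right. The dashed line is the 16.9% of all protein-coding genes. H3K36 enzymes lie at 3 of 5 and 2 of 3, and H3K9 writers at 0 of 6. H3K27 and H3K79, with 1 gene each, are left out.

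Start sites and strand were given by RefSeq for 28 of the 41 genes, and an island lay within 1 kb of a start in 6 of these, against 9.53% of protein-coding genes with a start given. Setd1b, Kmt2e, Kdm6b, Nsd1, Nsd3, Kdm2a, Kdm3b and Kdm5a had islands but no start given. They are therefore left out here and in the motif and CpG results. In each of the 6 genes with an island within 1 kb of a start, the start itself was inside the island. They were the writers Kmt2a, Kmt2c and Setd2 and the erasers Kdm2b, Kdm3a and Jmjd1c. A given start can lie well inside the annotated gene, as at Jmjd1c and Setd5, so a start at the gene's end may not have been examined. The Jmjd1c island covers such an inner start, and the other start given for that gene was in no island. The sequences below are shown because they are the promoter DNA that lies under these islands: the part of the 250 bases before the start that is outside the annotated gene, 5′ to 3′ on the strand of the gene, from RefSeq GRCm38.p6. Capitals mark exact matches to the motifs searched. The positions are chr9:44881353-44881539, minus strand, for Kmt2a, chr5:25498856-25499033, minus strand, for Kmt2c, chr9:110532347-110532499, plus strand, for Setd2, chr6:71632991-71633167, minus strand, for Kdm3a, and chr5:122989271-122989349, minus strand, for Kdm2b.
Kmt2a: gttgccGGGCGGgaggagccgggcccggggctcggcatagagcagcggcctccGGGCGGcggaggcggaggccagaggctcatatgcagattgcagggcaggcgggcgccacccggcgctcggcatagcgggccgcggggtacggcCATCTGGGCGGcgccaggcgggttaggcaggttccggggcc
Kmt2c: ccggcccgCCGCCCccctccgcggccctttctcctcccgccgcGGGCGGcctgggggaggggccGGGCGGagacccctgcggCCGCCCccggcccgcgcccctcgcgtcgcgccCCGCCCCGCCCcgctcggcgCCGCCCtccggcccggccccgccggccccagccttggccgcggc
Setd2: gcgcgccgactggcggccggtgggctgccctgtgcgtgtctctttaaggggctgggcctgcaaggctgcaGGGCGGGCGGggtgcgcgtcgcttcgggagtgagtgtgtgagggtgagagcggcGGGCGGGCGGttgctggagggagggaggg
Kdm3a: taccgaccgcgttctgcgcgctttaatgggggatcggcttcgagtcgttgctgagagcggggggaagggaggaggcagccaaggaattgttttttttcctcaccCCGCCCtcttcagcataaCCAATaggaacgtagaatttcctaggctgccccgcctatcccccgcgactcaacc
Kdm2b: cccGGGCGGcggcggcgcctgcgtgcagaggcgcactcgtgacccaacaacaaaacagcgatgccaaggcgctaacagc

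The GC box GGGCGG is the core of sites for Sp1-type factors, and the number of matches differed between these promoters. The printed part of Kmt2c held 7 matches to GGGCGG and 32 CpG dinucleotides, that of Setd2 4 and 16, and that of Kmt2a 3 and 23. Kdm3a and Kdm2b held 1 GGGCGG match each, with 14 and 10 CpG dinucleotides, and Kdm3a also 1 CCAAT box. The printed parts differ in length, from 79 bases for Kdm2b to 187 for Kmt2a. In the full 250 bases, GGGCGG matches numbered 12 for Kmt2c, 7 for Setd2, 4 for Kmt2a, 2 for Kdm3a and 1 for Kdm2b. The window of another Kdm3a start in the same island held 4. Kmt2a held 1 CATCTG, an E-box, which overlapped a GGGCGG match. Over the full 250 bases, GGGCGG was found in 6 of the 8 windows of these genes whose start lay in an island, and in 22 of the 33 other windows. The share was 67.02% over all windows whose protein-coding start lay in an island, and 43.05% over all 21045 windows. The window before the Jmjd1c start in its island held no match. Both strands were searched, and overlapping matches were counted. The windows of the enzyme genes held no match to GCATGCGC, CCGGAAGT or TGGGTGGTC, which were found in 2.95%, 3.83% and 0.162% of all windows. CACGTG was found in 3 of the 41 windows of enzyme genes and TGACGTCA in 1, against 6.70% and 1.94% of all windows, and CATCTG in 2, against 12.3%. CCAAT was found in 15, against 35.7%. A match describes these letters only.

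CpG content was high at the enzyme genes both with and without an island at the start. The CpG observed to expected ratio had a median of 0.924 (range 0.660 to 1.03) over the 8 windows whose start lay in an island. Over the 33 other windows of enzyme genes it was 0.827 (0 to 1.35), over all protein-coding windows with the start in an island 0.808, and over all protein-coding windows 0.537. With a ratio of 0.8 or more, the start was in an island for 5 of 23 windows of enzyme genes, against 17.4% of all such windows. From 0.4 to under 0.8 it was for 3 of 14, against 9.6%. Below 0.4 none of 4 windows of enzyme genes had its start in an island, against 1.99% of all. Windows of one gene can overlap and are not independent.

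Among the H3K4 writers, Setd1b had the island with the most reads. Setd1b, a catalytic subunit of a COMPASS complex, had 340 reads (exact Poisson 95% interval 305 to 378) over 10800 bp across its lower-coordinate end (chr5:123132192-123142991). Only 24 of the 5727 islands held more reads. The island also overlapped Rhof, a neighbouring gene whose end lies 232 bp from Setd1b, so it cannot be assigned to either gene alone. Its density was ordinary, at 6.30 reads per 200 bp against a median of 6.27 over all islands. A small island of 35 reads lay inside Setd1b, 7752 bp from the same end.

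Kmt2a (MLL1), which maintains expression of developmental genes, had an island of 91 reads (73.3 to 112) over its start (chr9:44879318-44882717). Kmt2c (MLL3), which places H3K4 monomethylation at enhancers, had one of 87 reads (69.7 to 107) over its start (chr5:25497983-25500582). The counts of the pair lie within each other's intervals. Their closest paralogues differed in the call: Kmt2b had no island within 287 kb, and Kmt2d none within 78.1 kb. Setd1a, the paralogue of Setd1b, was 75.2 kb from the nearest island. Setd7 and Prdm9, a germ-cell gene that marks recombination sites, also had none, with the nearest 97.4 and 243 kb away.

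Of the H3K4 erasers, Kdm5a, a JmjC demethylase of trimethylated H3K4, had 104 reads (85.0 to 126) in an island across the lower-coordinate end (chr6:120362983-120366782). Ccdc77 overlaps Kdm5a there, and the island covered ends of both. Kdm5b, its paralogue, was 481 kb from the nearest island. Kdm1b, a flavin-dependent oxidase, was 19.95 kb from one.

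Genes for H3K36 enzymes had islands near their ends in each of the 5 with an island. Setd2, the enzyme of trimethylated H3K36 in transcribed genes, had 87 reads (69.7 to 107) over its start (chr9:110530497-110533696). Nsd1, which dimethylates H3K36, had 63 reads (48.4 to 80.6) in an island 858 bp inside its lower-coordinate end (chr13:55210640-55212839). Nsd3 had 80 reads (63.4 to 99.6) in an island 2273 bp outside the lower-coordinate end and across an end of Letm2, and 41 reads (29.4 to 55.6) in one across its own end. No island lay within 388 kb of Nsd2, and the nearest to Ash1l was 10.9 kb away.

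The H3K36 erasers Kdm2a and Kdm2b, paralogues that bind unmethylated CpG DNA through a CXXC domain, both had islands. Of all protein-coding genes in their length classes, 24.9 and 39.9% had an island. Kdm2b had 81 reads (64.3 to 101) over its start (chr5:122987592-122990591) and 45 reads (32.8 to 60.2) in an island 49.9 kb inside the gene. Kdm2a had 44 reads (32.0 to 59.1) in an island 721 bp inside its higher-coordinate end, which also lay inside the overlapping gene 9430078G10Rik. Kdm8, for which H3K36 demethylation is debated, was 27.2 kb from the nearest island.

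None of the 6 H3K9 writers in the list had an island within 5 kb. Prdm8 and Mecom, PRDM genes outside the list for which H3K9 methylation has been reported, had 2 islands each. Neither island of Mecom lay within 5 kb of its ends. It is longer than 100 kb, a class in which 39.9% of all genes had an island. Prdm16 and Suv39h1, also outside the list, had none. Among the 6, Setdb1, which silences retroelements together with Trim28, came nearest, at 5.85 kb. The others were Ehmt2 at 36.4 kb, Suv39h2 at 122 kb, Ehmt1 at 134 kb, Prdm2 at 173 kb and Setdb2 at 186 kb. Ehmt1 and Ehmt2 (GLP and G9a) form the complex that dimethylates H3K9, and Suv39h2 acts in constitutive heterochromatin. With a window of 10 kb Setdb1 would be counted.

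The islands of the H3K9 erasers differed in place. Kdm3a, Kdm3b and Jmjd1c, the KDM3 family genes in the list, each had at least 1. In their length classes, 16.8, 24.9 and 39.9% of all protein-coding genes had an island. Kdm3a had 98 reads (79.6 to 119) over its start (chr6:71630407-71633806). Kdm3b had 44 reads (32.0 to 59.1) in a 1000 bp island across its lower-coordinate end, 2987 bp from Fam53c. Jmjd1c had islands of 64 and 81 reads inside the gene, the second (64.3 to 101; chr10:67185253-67187452) over a start site that lies within the gene. Of the KDM4 family, which acts on H3K9 and, in part, H3K36, only Kdm4a had an island. It held 139 reads (117 to 164) over 5600 bp and lay wholly inside the gene, 27648 bp from the start (chr4:118146796-118152395). Its density was low, at 4.96 reads per 200 bp against a median of 6.27 over all islands. Kdm4b, Kdm4d and Kdm4c had none, with the nearest 72.2, 185 and 1156 kb away, and Kdm7a was 35.0 kb from one.

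Kdm6b (JMJD3), which removes methyl groups from H3K27 and opposes Polycomb repression, had the most islands of the 41 genes. The one with the most reads held 225 (197 to 256) over 4000 bp well within the gene, 6791 bp past the lower-coordinate end (chr11:69405299-69409298). At 11.25 reads per 200 bp it was the densest of the 22 islands. None of the 95 islands of this width in the list held more reads, and their median was 114. It lay just under the 11.6 reads per 200 bp above which islands were taken as unusually dense. A further island of 134 reads (112 to 159), near the higher-coordinate end, matched the median of islands of its width. It also lay within 5 kb of Dnah2, at 2309 bp. The third, of 57 reads (43.2 to 73.9), lay outside the gene at Cyb5d1, Naa38 and Tmem88.

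Among the remaining writers, Kmt2e (MLL5), which binds trimethylated H3K4 through a PHD finger, had 254 reads (224 to 287) over 7400 bp across its lower-coordinate end (chr5:23429783-23437182). No other protein-coding gene lay within 5 kb of that island, and 35 islands of the list held more reads. The density of the Kmt2e island was 6.865 reads per 200 bp, against a median of 6.27 over all islands. Kmt5a, the enzyme of monomethylated H4K20, had 52 reads (38.8 to 68.2) in an island inside the gene, 6088 bp from the nearest start. Kmt5b and Kmt5c, which add the further methyl groups to H4K20, had none within 80.6 and 40.9 kb. The nearest islands to Setd3, Setd5 and Dot1l were 60.5, 41.8 and 132 kb away.

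**Figure D3:**
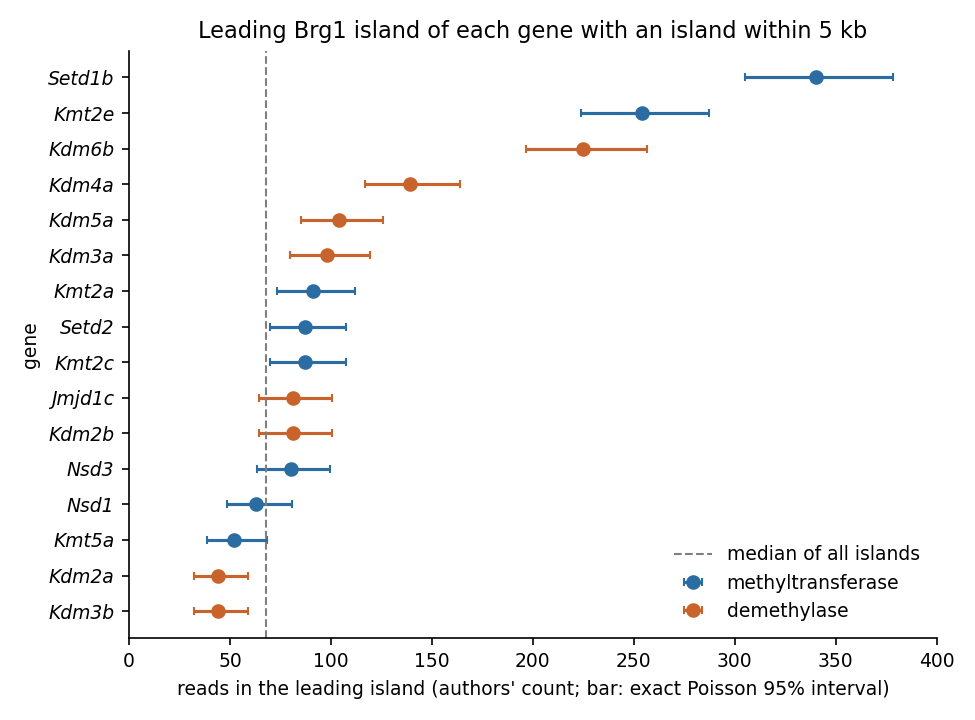
Reads in the leading island of each of the 16 genes with one (horizontal axis, the authors' count, with exact Poisson 95% intervals), writers in blue and erasers in orange. Setd1b, Kmt2e and Kdm6b, at 340, 254 and 225 reads, lie apart from the other 13 genes, at 44 to 139. The dashed line is the median of all islands, 68 reads. The median over leading islands of all protein-coding genes with one was 72.

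Islands lay at gene ends and deep in the gene. Of the 16 genes with an island, 13 had one within 5 kb of an end, as did 2823 of the 3657 protein-coding genes with an island. Of the 22 islands, 12 were within 1 kb of an annotated end, 1 in each of 12 genes. A further 8 lay inside the gene more than 1 kb from both ends, and 2 lay outside. These places were not counted over all islands, so the counts have no background beside them. The 12 at ends had a median of 87 reads and the 8 inside 72.5, with ranges of 41 to 340 and 35 to 225. Kmt5a, Kdm4a and Jmjd1c had islands only inside, over 5 kb from both annotated ends.

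**Figure D4:**
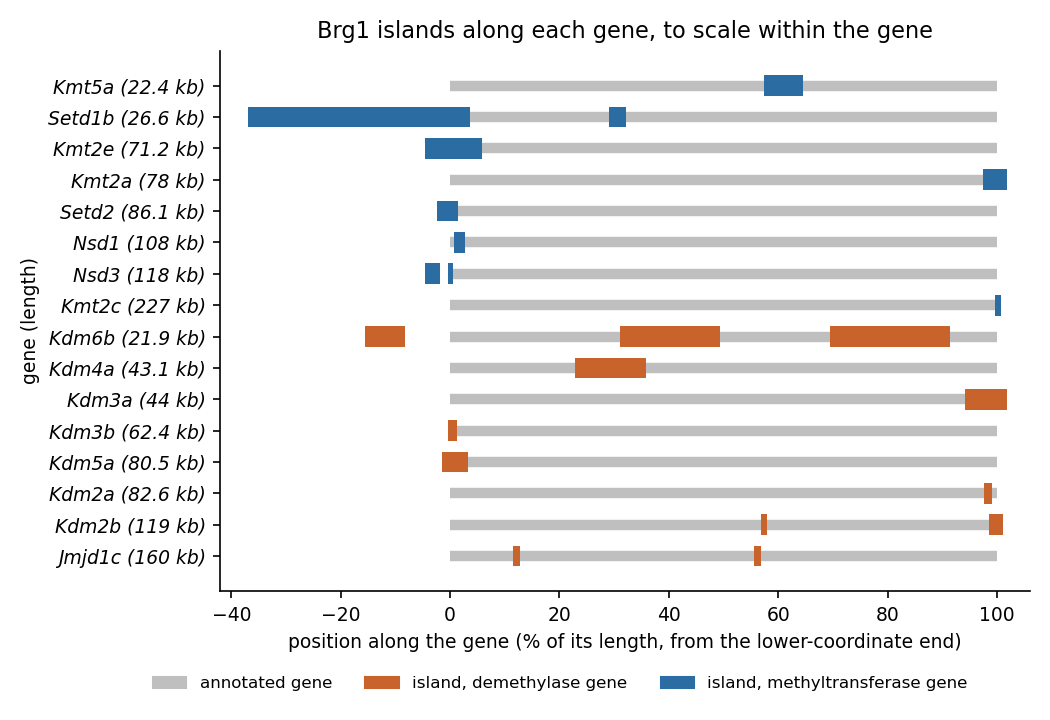
Islands (coloured) along each of the 16 genes (grey bars), as percent of gene length from the lower-coordinate end, each gene scaled to its own length. Kmt2a, Kmt2c, Kdm2b and Kdm3a have an island across the higher-coordinate end, and Setd1b, Setd2, Kmt2e, Nsd3, Kdm3b and Kdm5a across the lower-coordinate end. Kdm4a, Kmt5a and Jmjd1c have theirs in the interior.

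Most of the leading islands held more reads than the typical island, and they were also wider. The median was 87 reads in the 16 leading islands, and 12 of them were above 68, the median of all. Over the leading islands of the 3657 protein-coding genes with an island, the median was 72. Of the 16, 9 held 86 reads or more, as did 25.6% of all islands. Choosing the leading island of each gene favours high counts; over all 22 islands, 10 held that many. Median widths were 3200 bp in the 16 leading islands, 2800 bp in the 22 and 2200 bp over all. Median reads per 200 bp were 6.03, 6.45 and 6.27 in the same order, so density differed little. Compared with islands of the same width, 8 of the 22 were above the median count, 2 at it and 12 below. The median was 83.5 reads in the 10 islands of writers and 81 in the 12 of erasers.

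**Figure D5:**
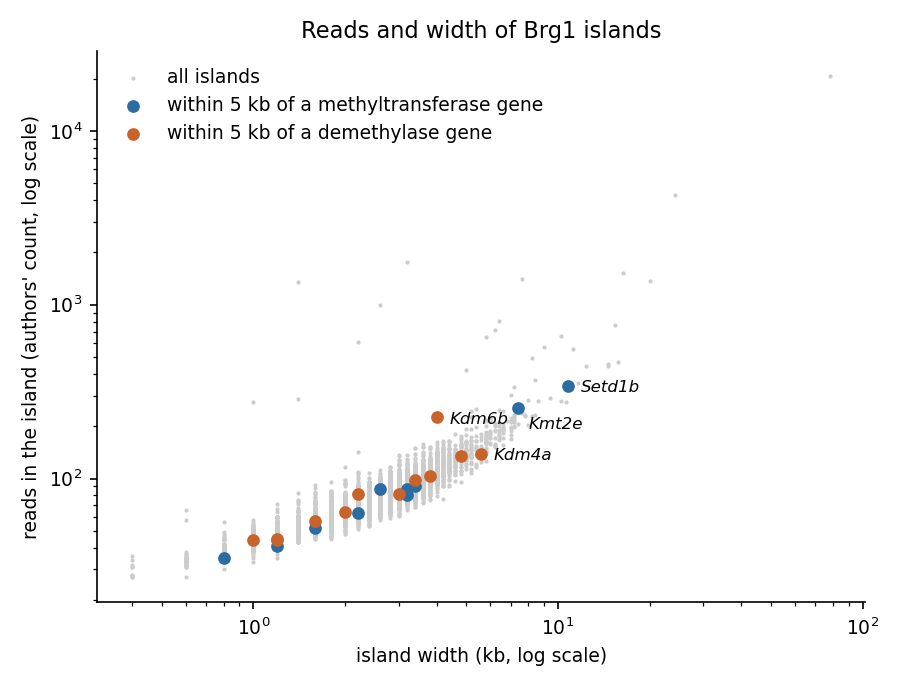
Reads (authors' count) against width (kb) for all 5727 islands (grey) and the 22 islands at writer (blue) and eraser (orange) genes, on log axes. The 22 follow the main band, where reads rise with width, except the Kdm6b island of 225 reads over 4000 bp, which lies above it.

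Chromosome 5 carried 6 of the 41 genes, and 5 of these had an island: Kmt2c, Kmt2e, Kdm2b, Setd1b and Kmt5a, but not Nsd2. The share over all protein-coding genes of chromosome 5 was 18.4%, and 11 of the 35 enzyme genes elsewhere had an island. Kdm2b and Setd1b lie 153 kb apart there. This grouping was chosen after its values were seen.

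Lists of related genes gave lower shares, a description whose intervals overlap that of the 41 genes. In the order below they were 31.8, 7.14, 18.5 and 22.2%, against 16.9% of all protein-coding genes. The shares of the acetylation and arginine lists were near that background. Counts at the shares of their length classes were not computed for these lists. Of the 22 other lysine methylation enzyme genes on chromosomes 1 to 19 and X, 7 had an island: Prdm8 (92 reads), Ezh2, the H3K27 writer of Polycomb repressive complex 2 (91), Mecom (79), Hr, Ezh1, Phf2 and Kdm1a. The other 15, among them Suv39h1, Kdm5c, Kdm6a and Phf8, had none. Of 14 non-catalytic partners of the H3K4 writers, such as Wdr5, Ash2l and Men1, 1 had an island, Wdr82 (62 reads). Of 27 acetyltransferase and deacetylase genes 5 did, led by Sirt4 (117), Kat6b (73) and Hdac9 (66), and of 9 arginine methyltransferase genes 2 did, Prmt6 (78) and Prmt8 (65). The median lengths of these lists, 43.95, 24.3, 26.5 and 31.95 kb, were below the 62.4 kb of the 41 genes.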

How the data were processed

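Chromatin of dissociated SmoM2 medulloblastoma cells was immunoprecipitated with the J1 antibody and sequenced. Per the submitters' processing notes, SICER 1.1, Picard 1.127 and Bowtie 0.12.7 were used with mm9 and mm10, in roles that the notes do not assign. Their settings, and whether the input served as control, are not given. The authors' deposited list gives 5727 islands with a whole number each, taken as a read count from its values: it rises with width (Spearman 0.917 across islands, a description). Counts are scaled for neither depth nor width. Reads per 200 bp are given only as medians and for single islands of Setd1b, Kmt2e, Kdm4a and Kdm6b. Coordinates were read as 0-based and closed, and are printed 1-based on mm10.

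Islands were assigned to RefSeq GRCm38.p6 genes with Python 3.11.15, pandas 2.3.3 and scipy 1.17.1, and the assignment was tested on simulated data. Promoter sequences were given for 28 of the 41 genes; the others are Kmt2b, Kmt2e, Setd1b, Nsd1, Nsd2, Nsd3, Ash1l, Prdm2, Kdm2a, Kdm3b, Kdm4b, Kdm5a and Kdm6b. Each gene was placed under 1 main lysine from general knowledge. All 41 genes are accounted for; of other lists up to 3 genes by reads have values. Genes and lists were chosen with earlier results of these data known. Shares carry Wilson and reads exact Poisson 95% intervals, and the interval of a difference of shares combines the Wilson limits (Newcombe). Alternatives were other windows, gene ends, start sites, stricter islands, islands without unusual density (3 interquartile ranges above the upper quartile), the nearest gene end, island midpoints, every lysine of a gene, and gene length.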

Additional observations from a re-analysis of the deposited data

How the results depend on the processing

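Of 87 alternative values, 80 stayed within 1.5 times the reported count or within the reported interval. Only the writer minus eraser difference could change direction, and it did not. The criterion was loose for small lysine classes, since the interval for H3K27 ran from 20.65 to 100%. Leaving out unusually dense islands could change nothing, because none of the 22 islands was unusually dense. With only the 1464 islands of 86 or more reads, 9 of the 41 genes had an island, 5 writers and 4 erasers. Within 5 kb of a start site, 6 of the 28 genes with a start given had one, 3 writers and 3 erasers. Fewer genes could be counted there. The share over all protein-coding genes was not computed at either setting, so neither count has a background beside it. Within 5 kb of a gene end, the H4K20 share was 0 and the H3K9 share 14.3%, against 28.6% as reported. With every lysine of a gene counted, 50% of the H3K27 genes had an island, against 100% as reported, since Kdm7a then joins Kdm6b. The writer minus eraser difference ran from -35.7 to -5.56 percentage points over its alternatives. The lysine classes hold 1 to 14 genes, which limits their precision. With 1 library, no sample could be left out. No paired analysis was possible because there was 1 ChIP library.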
